A study of Mus musculus with 8 samples.

Results

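Genes of mitochondrial fatty acid oxidation and of the citrate cycle were examined in epididymal white adipose tissue (WAT). The set held 43 genes, chosen by name for their place in these pathways, and each was read through the brightest of its probes that were detected. Of the 43, 36 could be measured among 8285 genes compared in all. Probes for another 6 were on the array but were detected on too few arrays, and 1 gene, Hadha, was not analysed here.

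The arrays compared male C57BL6/J mice aged 4 months. Agt Tg mice overexpress angiotensinogen (Agt), from which the renin-angiotensin system makes angiotensin, in white adipose tissue, and 4 arrays carried that label. The other 4 arrays came from wild type (Wt) mice of the same sex, strain and age. Per the study's text, the aP2 (Fabp4) promoter drives the transgene, and by its methods mice of both groups ate a low fat diet. The aP2 promoter is known to be active in macrophages as well as in adipocytes. Whether every array came from its own mouse is not stated outright, and p-values therefore speak only of the spread among these arrays, part of which may be technical.

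In these pathways, long fatty acids cross into mitochondria as carnitine esters and are shortened in a cycle of dehydrogenation, hydration, second dehydrogenation and thiolytic cleavage. The electrons of the acyl-CoA dehydrogenases pass through the electron transfer flavoprotein to the respiratory chain. Acetyl-CoA from fatty acids, pyruvate and branched-chain amino acids then enters the citrate cycle. White adipocytes are known mainly for storing and releasing fatty acids, and in them citrate also leaves mitochondria to feed lipid synthesis, while branched-chain amino acids are broken down actively. PPARalpha and its coactivator PGC-1alpha are known inducers of fatty acid oxidation in liver, muscle and brown fat.

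The transgene was not visible at the Agt probe. Agt had levels of 6.74, 8.80, 6.39 and 8.39 on the arrays labelled Agt Tg, against 7.50, 8.87, 8.11 and 8.09 on the Wt arrays, where a level is a normalized log2 intensity. The difference was -0.56 ± 0.48 (SE), with an adjusted p of 0.718 by limma and an exact permutation p of 0.4, two-sided. The sources used here do not say whether this probe reads the transgene. Directions below therefore belong to arrays by their label. Detected probes ran from 11250 to 12280 per array, arrays of a group correlated at 0.956 to 0.986, and precision is limited by there being 4 arrays in a group. White adipocyte markers (12 of 14 measured, among them Adipoq, Plin1 and Lipe) had mean levels of 10.74 to 11.47 on the arrays labelled Agt Tg and 11.01 to 11.36 on the Wt arrays. Fabp4, which enters that mean, ran from 6.81 to 9.83 on the arrays labelled Agt Tg and from 7.98 to 8.20 on the Wt arrays. Of 9 brown or beige adipocyte markers 4 were measured, each detected on all 8 arrays (Cidea, Cox8b, Cox7a1 and Kcnk3), with list means of 7.59 to 8.02 on the arrays labelled Agt Tg and 7.72 to 8.34 on the Wt arrays. Ucp1, Elovl3 and Zic1 of that list were detected on 0 of the 8 arrays, Dio2 on 1 and Ppargc1a on 2. Each of them was read through 1 probe.

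Nuclear receptors that act on these pathways, among them PPARalpha and the estrogen-related receptors, bind variants of the letters AGGTCA. Promoters of 300 bases (250 before and 50 after the start, RefSeq, GRCm38.p6) were on hand for 37 of the 43 genes, and both strands were searched. A gene counted as matched when any of its promoters matched. The letters AGGTCA stood in 9 of these 37 genes (24.3%), namely Acadm, Acadvl, Bckdhb, Cpt1a, Echs1, Fh1, Idh3g, Ogdh and Pcx. They stood in 18.1% of 27025 genes with promoters of the same length. A direct repeat of AGGTCA with 1 base between the copies stood in 0 of the 37 genes and 0.0481% of the 27025. The extended form TNAAGGTCA stood in 0 and 1.43%. A match is a string of letters and not a binding site. Windows of 30 bases around the match in 3 genes, an acyl-CoA dehydrogenase, the hydratase of the next step and the enzyme that makes oxaloacetate, are shown as examples of where these letters lie, with the match, or its reverse complement TGACCT, in capitals.
Acadm, chr3:153944864-153944893, minus strand: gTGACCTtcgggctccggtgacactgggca
Echs1, chr7:140116487-140116516, minus strand: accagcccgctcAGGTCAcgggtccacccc
Pcx, chr19:4594339-4594368, plus strand: ctttgtattctggggccaaTGACCTcgggt

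Across the 36 measured genes few differences between the arrays labelled Agt Tg and the Wt arrays were resolved. The 95% intervals were wide for some genes, reaching 1.57 for Bcat2 and -1.15 for Bckdhb. No gene passed at adjusted p under 0.05 by limma (lowest 0.350), and in the whole comparison 0 of 8285 genes did (0%, lowest 0.224). At unadjusted p under 0.05, 2 genes were higher, Bcat2 and Acaa2 (5.56%, where 3.93% of all genes were called higher), and 2 were lower, Mdh2 and Hadhb (5.56%, where 5.35% of all genes were called lower). These shares are near the background. The groups did not overlap for Acaa2 and Acaa1a, which were higher (3.05% of all genes), and for Mdh2, which was lower (3.31% of all genes). Differences ran from -0.54 for Mdh2 to 0.83 for Bcat2 with a median of -0.063, against a median of 0.014 over all genes. A difference below 0 was found for 22 of the 36 genes (61.1%), against 48% of all genes.

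By role, among 17 genes of fatty acid oxidation 8 differences were above 0 and 9 below, with a median of -0.034. Among 6 genes of pyruvate and branched-chain entry 4 were above 0 and 2 below, with a median of 0.11. Among 12 genes of the citrate cycle and the malate dehydrogenases 2 were above 0 and 10 below, with a median of -0.16, and only Mdh2 of them passed unadjusted p under 0.05. Without Wt replicate 2, on which many of these genes were high, 5 of the 12 were below 0 and their median was 0.0022. In bulk tissue, fewer cells of a type and less RNA per cell cannot be told apart.

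**Figure D1:**
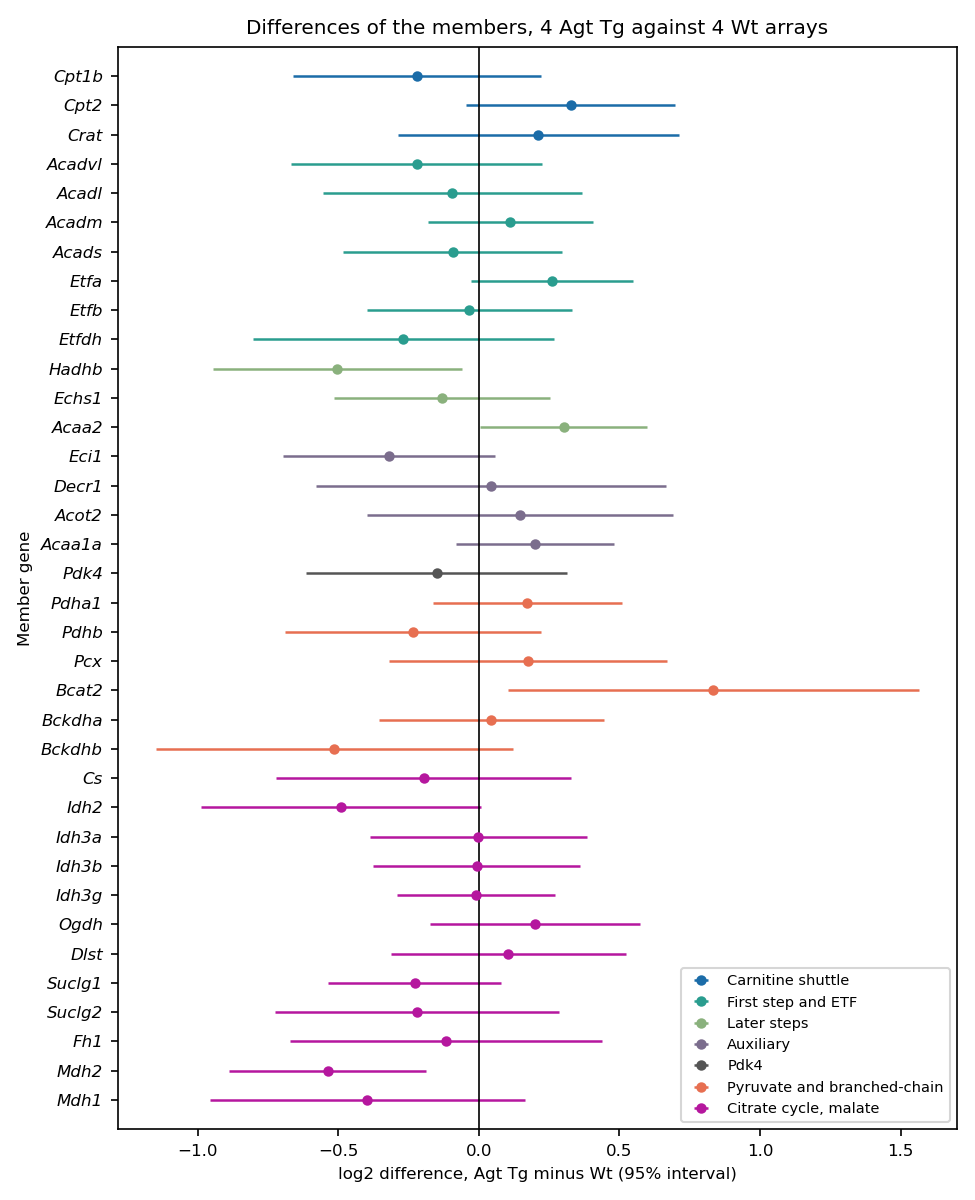
Points are log2 differences, Agt Tg minus Wt, of the 36 measured genes down the page by role (ETF, electron transfer flavoprotein), and lines are 95% intervals from limma over 4 against 4 arrays. Only the intervals of Hadhb, Acaa2, Bcat2 and Mdh2 leave out 0, and 10 of the 12 points of the citrate cycle and malate dehydrogenases lie left of it.

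Entry of fatty acids into mitochondria runs through the carnitine palmitoyltransferases. Cpt1a, the liver form of the outer enzyme and the rate-setting gate in many tissues, was detected on 0 of 8 arrays. It had 1 probe, and an undetected probe does not show that a gene is silent. For Suclg1, 1 probe was detected on 0 arrays while its brightest probe averaged 11.52. Cpt1b, the muscle form, was dim, detected on 2 arrays labelled Agt Tg and on 4 Wt arrays. Its levels were 5.11, 4.90, 4.78 and 5.17 on the arrays labelled Agt Tg and 5.12, 5.26, 5.49 and 4.97 on the Wt arrays. These overlapped, with a difference of -0.22 ± 0.20 (SE, unadjusted p = 0.298 by limma).

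Cpt2, the inner enzyme that hands the acyl group back to coenzyme A, was at 11.28, 11.46, 11.08 and 11.26 on the arrays labelled Agt Tg and at 10.88, 11.41, 10.65 and 10.83 on the Wt arrays. Wt replicate 2 lay among the arrays labelled Agt Tg and the other 3 Wt arrays lay below all of them. The difference was 0.33 ± 0.17 (unadjusted p = 0.0791 by limma, adjusted p = 0.549). Crat, the carnitine acetyltransferase that buffers acetyl-CoA, ran from 9.01 to 10.02 on the arrays labelled Agt Tg and from 9.04 to 9.83 on the Wt arrays, a difference of 0.21 ± 0.23.

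The 4 acyl-CoA dehydrogenases take the first step for chains of falling length. Their differences were -0.22 for Acadvl (very long chains), -0.09 for Acadl (long), 0.11 for Acadm (medium) and -0.09 for Acads (short), the smallest unadjusted p being 0.304 (Acadvl). Of the 3 genes with a further kept probe, Acadl gave the same sign with it (-0.14) and the other two did not. The dimmer probe of Acadm gave -0.33 (unadjusted p = 0.182) and that of Acads gave 0.34 (unadjusted p = 0.0491, both by limma).

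Of the electron transfer flavoprotein, which collects the electrons of these dehydrogenases, the alpha subunit Etfa gave 0.26 ± 0.13 (unadjusted p = 0.0734 by limma) at its brightest probe. Its 3 other probes gave 0.17, -0.16 and -0.39, the last with an unadjusted p of 0.0206, so that the direction of Etfa depended on the probe. Etfb, the beta subunit, gave -0.03 ± 0.17, and Etfdh, which passes the electrons on to ubiquinone, -0.27 ± 0.25.

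The later steps of the spiral held a gene called lower and a gene called higher. Hadhb is the beta subunit of the mitochondrial trifunctional protein and carries its thiolase for long chains, and its partner Hadha was not analysed here. Hadhb levels were 9.67, 9.19, 9.57 and 9.13 on the arrays labelled Agt Tg and 10.31, 10.03, 9.45 and 9.78 on the Wt arrays. Wt replicate 3 lay among the arrays labelled Agt Tg, and the other 3 Wt arrays lay above them. The difference was -0.50 ± 0.20 (unadjusted p = 0.0290 and adjusted p = 0.469 by limma, exact permutation p = 0.114). It missed unadjusted p under 0.05 when replicate 2 (-0.44) or 4 (-0.42) of Agt Tg, or replicate 1 (-0.36) or 2 (-0.46) of Wt, was left out.

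Acaa2, the thiolase for medium chains, was at 10.81, 11.07, 10.89 and 10.83 on the arrays labelled Agt Tg and at 10.70, 10.39, 10.57 and 10.73 on the Wt arrays. Every array labelled Agt Tg lay above every Wt array, by 0.30 ± 0.14 in the mean (unadjusted p = 0.0463 by limma, exact permutation p = 0.0286, the smallest that 4 against 4 arrays can give). Its other 3 probes gave 0.13, -0.07 and -0.25, and the mean of the 4 probes gave 0.03. Its unadjusted p was under 0.05 in 4 of 20 alternatives, and it missed that mark when any single array other than Wt replicate 4 was left out (0.23 to 0.34). Echs1, the enoyl-CoA hydratase of the second step, differed by -0.13 ± 0.18. Hadh, which takes the third step for shorter chains, was detected on 0 arrays labelled Agt Tg and on 3 Wt arrays, and Acat1, the acetoacetyl-CoA thiolase, on none of the 8. Acat1 had 1 probe, so the limit named for Cpt1a applies to it too.

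Among auxiliary enzymes, Eci1, the isomerase for unsaturated fatty acids, gave -0.32 ± 0.17 (unadjusted p = 0.0908 by limma), Decr1, the dienoyl-CoA reductase, 0.04 ± 0.29, and the dim thioesterase Acot2 0.15 ± 0.25. Acaa1a, a peroxisomal thiolase, was at 12.45, 12.45, 12.43 and 12.43 on the arrays labelled Agt Tg and at 12.41, 12.06, 12.06 and 12.43 on the Wt arrays. The groups did not overlap, yet 2 of the Wt arrays lay just below the arrays labelled Agt Tg and 2 lay well below, and limma gave 0.20 ± 0.13 (unadjusted p = 0.149). Its near-identical paralog Acaa1b may share this probe's signal. Ehhadh, the peroxisomal bifunctional enzyme, had 1 probe, which was detected on 1 of 8 arrays.

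Ppara was detected on 0 of the 8 arrays, and Ppargc1a, which encodes PGC-1alpha, on 1 array labelled Agt Tg and 1 Wt array. Each had 1 probe, so the limit named for Cpt1a applies to both. Of 7 further regulators of these pathways 6 were measured, and 0 passed unadjusted p under 0.05. Among them Ppargc1b, the related coactivator, averaged 8.37 on the arrays labelled Agt Tg and 7.84 on the Wt arrays (unadjusted p = 0.226 by limma). Its levels were 8.24, 8.86, 8.32 and 8.05 on the arrays labelled Agt Tg and 8.27, 8.50, 6.27 and 8.32 on the Wt arrays. The lower Wt mean came from Wt replicate 3, and the other Wt arrays lay among the arrays labelled Agt Tg. Esrra, the estrogen-related receptor alpha, averaged 8.44 on the arrays labelled Agt Tg and 8.54 on the Wt arrays (unadjusted p = 0.565 by limma). Pdk4, the kinase that shuts pyruvate dehydrogenase and is a known PPARalpha target in liver and muscle, was at 9.57, 9.09, 9.05 and 9.35 on the arrays labelled Agt Tg and at 9.31, 8.87, 9.80 and 9.69 on the Wt arrays. Wt arrays lay both above and below all 4 arrays labelled Agt Tg, and the difference was -0.15 ± 0.21 (unadjusted p = 0.494 by limma).

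Of the genes that let pyruvate in, Pdha1, the alpha subunit of pyruvate dehydrogenase, gave 0.17 ± 0.15, and Pdhb, the beta subunit, -0.23 ± 0.21. Pcx, pyruvate carboxylase, which refills oxaloacetate, was at 9.54, 9.64, 8.75 and 9.98 on the arrays labelled Agt Tg and at 9.26, 9.48, 9.34 and 9.14 on the Wt arrays. Its Wt levels lay close together and Agt Tg replicate 3 lay below all of them, with a difference of 0.18 ± 0.23.

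Bcat2, the mitochondrial transaminase that starts the breakdown of branched-chain amino acids, had the largest difference of the 36 genes and the widest spread over arrays (2.60). Its levels were 10.70, 11.70, 10.50 and 11.12 on the arrays labelled Agt Tg and 10.39, 10.82, 9.10 and 10.37 on the Wt arrays. Wt replicate 2 lay above 2 of the arrays labelled Agt Tg, and Wt replicate 3 lay far below every other array. The mean was 1.78-fold higher, 0.83 ± 0.34 (unadjusted p = 0.0284 and adjusted p = 0.468 by limma, exact permutation p = 0.114). Without Wt replicate 3 the difference was 0.48 and missed unadjusted p under 0.05, as it did without Agt Tg replicate 2 (0.60) or 4 (0.80). It also missed that mark with median scaling (0.75, unadjusted p = 0.0819 by limma) and with array weights. With the replicate number as a block its unadjusted p was 6.85e-04 and its adjusted p 0.205 by limma. The labels do not pair samples by replicate number, so that block has no stated basis in the design.

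Of the branched-chain keto acid dehydrogenase, which takes the next and committing step, Bckdha was at 10.44, 10.70, 10.12 and 10.31 on the arrays labelled Agt Tg and at 10.17, 10.79, 10.07 and 10.36 on the Wt arrays, 0.04 ± 0.18 apart. Bckdhb ran from 5.56 to 6.66 on the arrays labelled Agt Tg and from 6.31 to 7.39 on the Wt arrays, a difference of -0.51 ± 0.29 (unadjusted p = 0.103 by limma).

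In the citrate cycle, Mdh2, the mitochondrial malate dehydrogenase that closes the cycle by making oxaloacetate, separated the groups most. Its levels were 7.61, 7.44, 7.29 and 7.39 on the arrays labelled Agt Tg and 7.99, 8.01, 7.93 and 7.94 on the Wt arrays. All 4 arrays labelled Agt Tg lay below all 4 Wt arrays, and the Wt arrays were nearly alike (SD 0.04). Mdh2 was 1.45-fold lower, a difference of -0.54 ± 0.16 (unadjusted p = 0.00579 and adjusted p = 0.350 by limma, exact permutation p = 0.0286). Its unadjusted p stayed under 0.05 in all 20 alternatives, with differences from -0.71 to -0.35, and its adjusted p did not pass in any of them. Mdh1, the cytosolic malate dehydrogenase of the malate shuttle, was dim at its brightest probe and gave -0.40 ± 0.26 (unadjusted p = 0.149).

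**Figure D2:**
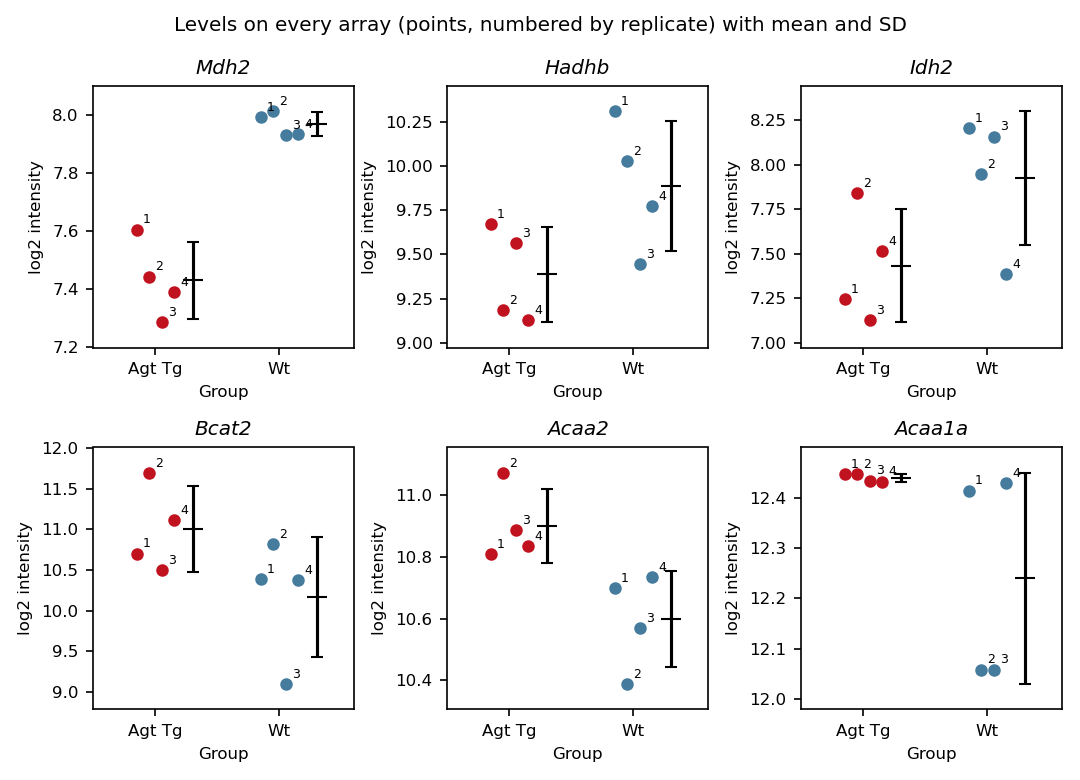
Each panel shows the normalized log2 intensity of 1 gene on every array, Agt Tg left and Wt right, as points numbered by replicate, with the mean and SD of 4 arrays as black bars beside them. The groups do not overlap for Mdh2, Acaa2 and Acaa1a, while Wt replicate 3 alone lies at 9.10 for Bcat2.

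Idh2, the mitochondrial NADP-linked isocitrate dehydrogenase, was at 7.25, 7.84, 7.13 and 7.52 on the arrays labelled Agt Tg and at 8.20, 7.95, 8.16 and 7.39 on the Wt arrays. Wt replicate 4 lay among the arrays labelled Agt Tg and the other 3 Wt arrays lay above them. The difference was -0.49 ± 0.23 (unadjusted p = 0.0529 by limma), and p was under 0.05 in 10 of 20 alternatives. The NAD-linked enzyme of the cycle, whose subunits are Idh3a, Idh3b and Idh3g, gave differences of 0.00, -0.01 and -0.01 with SE of 0.13 to 0.18. For these 3 genes the 95% intervals stayed within 0.39 of 0, although a dimmer second probe of Idh3g gave -0.35 (unadjusted p = 0.0686).

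Cs, citrate synthase and a common gauge of mitochondrial content, was at 9.17, 9.44, 9.09 and 9.13 on the arrays labelled Agt Tg and at 9.37, 10.21, 8.99 and 9.03 on the Wt arrays. Wt replicate 2 stood above all other arrays, and the difference of -0.20 ± 0.24 was smaller than the spread. Of the other cycle genes, Ogdh and Dlst, of the oxoglutarate dehydrogenase complex, gave 0.20 and 0.11. Suclg1 and Suclg2, of succinyl-CoA synthetase, gave -0.23 and -0.22, and Fh1, fumarase, gave -0.12. None of these 5 passed unadjusted p under 0.05, and their smallest p was 0.132, for Suclg1.

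Partner genes were set side by side in 8 pairs, 7 of subunits of 1 enzyme and 1 of the separate malate dehydrogenases Mdh1 and Mdh2. The log2 ratio of Pdha1 to Pdhb was higher by 0.41 on the arrays labelled Agt Tg, with no overlap between groups (exact permutation p = 0.0286, adjusted over the 8 pairs 0.229). That of Bckdha to Bckdhb was higher by 0.56 (exact permutation p = 0.0571, adjusted 0.229). The next smallest exact permutation p was 0.229, for Etfa and Etfb, and for Suclg1 and Suclg2 the ratios differed by -0.01.

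The wider pathways gave the same kind of result. Of 64 further genes listed for these pathways 44 were measured, 19 with a difference above 0 and 25 below, with a median of -0.070. None was higher and 3 were lower at unadjusted p under 0.05 (6.82%, where 5.35% of all genes were called lower). Mlycd, which degrades malonyl-CoA, the inhibitor of the carnitine gate, was at 7.16, 6.72, 6.59 and 7.17 on the arrays labelled Agt Tg and at 7.88, 7.74, 7.25 and 7.49 on the Wt arrays. The groups did not overlap, and the difference was -0.68 (unadjusted p = 0.00774 and adjusted p = 0.360 by limma, exact permutation p = 0.0286), under 0.05 unadjusted in all 20 alternatives.

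Pdk3, a further pyruvate dehydrogenase kinase, ran from 5.51 to 6.07 on the arrays labelled Agt Tg and from 6.01 to 6.89 on the Wt arrays (-0.63, unadjusted p = 0.0205 by limma), and missed 0.05 without Agt Tg replicate 3 (-0.56) or Wt replicate 1 (-0.44). Acadsb, the dehydrogenase of short branched acyl-CoA, gave -0.71 (unadjusted p = 0.0494), and passed in 9 of 20 alternatives. It was at -0.42 without Agt Tg replicate 3, and it missed 0.05 also when replicate 1 or 4 of Agt Tg, or replicate 1, 2 or 3 of Wt, was left out. Dbt, the core subunit of the branched-chain keto acid dehydrogenase, gave 0.52 (unadjusted p = 0.0540). Of 19 general mitochondrial genes (import, channels and structure) 13 were measured, 9 of them with a difference below 0 (69.2%, where 48% of all genes were). Vdac2 and Vdac3, channels of the outer membrane, were lower at unadjusted p under 0.05 (-0.56 and -0.44), 15.4% of the 13 where 5.35% of all genes were called lower. Vdac2 missed it when replicate 2 or 4 of Agt Tg, or replicate 1, 2 or 3 of Wt, was left out, and Vdac3 when replicate 3 or 4 of Agt Tg, or replicate 1 of Wt, was.

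Arrays of the same label differed from each other in these genes. Agt Tg replicate 2 and Wt replicate 2 were high, with 31 and 30 of the 36 genes above their own mean over the 8 arrays. Agt Tg replicate 3 and Wt replicate 4 were low, with 2 and 7 of 36. The other arrays had 17 (Agt Tg replicates 1 and 4), 17 (Wt replicate 1) and 14 (Wt replicate 3). Among all genes between 48.8% and 51.9% were above their own mean on each array. The median deviation of the 36 genes was -0.006, 0.21, -0.20 and -0.02 on the arrays labelled Agt Tg and -0.02, 0.22, -0.08 and -0.12 on the Wt arrays. The median within-group SD of the 36 genes, 0.292, was near that of all genes, 0.293.

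**Figure D3:**
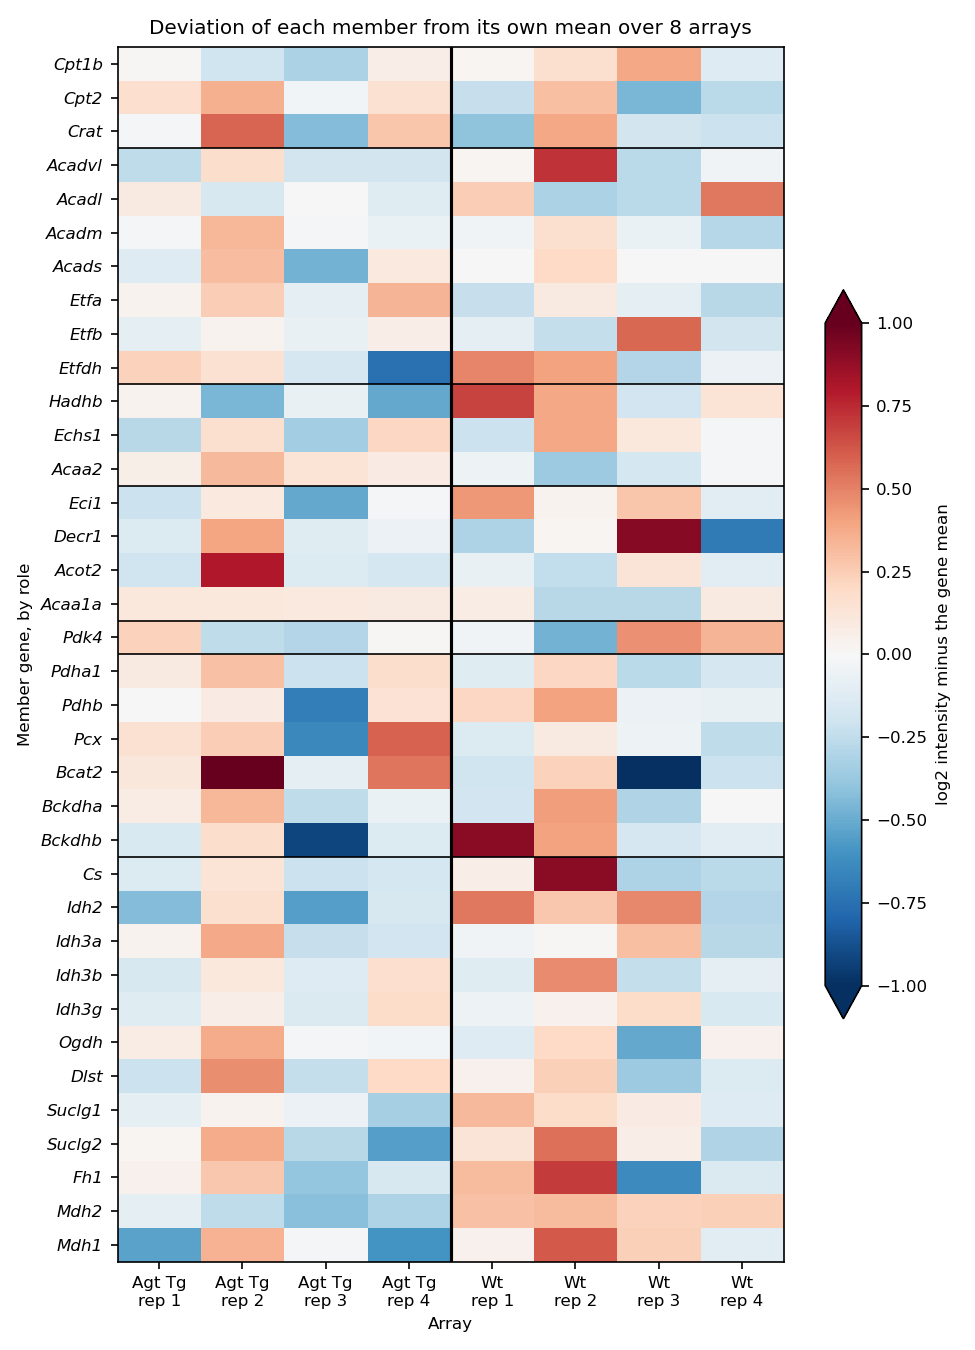
The colour of each cell is the normalized log2 intensity of 1 gene on 1 array minus that gene's mean over 8 arrays, red above and blue below, with colours saturated at 1, genes down the page by role, the 4 Agt Tg arrays left and the 4 Wt arrays right. Replicate 2 of each group is mostly red (31 and 30 of 36 genes above their mean) and Agt Tg replicate 3 mostly blue (2 of 36).

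Marker means followed this pattern on some arrays and not on others. The mean level of macrophage markers (11 of 15 measured) was 8.99, 7.60, 9.01 and 7.94 on the arrays labelled Agt Tg and 8.87, 8.19, 8.60 and 8.70 on the Wt arrays. It was lowest on Agt Tg replicates 2 and 4 and, among Wt arrays, on replicate 2. The mean of white adipocyte markers was 10.90, 11.45, 10.74 and 11.47 on the arrays labelled Agt Tg and 11.01, 11.36, 11.07 and 11.01 on the Wt arrays, highest on Agt Tg replicates 4 and 2 and on Wt replicate 2. Agt Tg replicate 4, with a low macrophage mean and the highest adipocyte mean, had a median deviation of -0.02 in the 36 genes. Its adipocyte mean, close to that of Agt Tg replicate 2, took in the highest Fabp4 level of the 8 arrays, 9.83, so its rank leans on that gene. Agt Tg replicate 1, with a macrophage mean close to that of replicate 3, had a median deviation of -0.006 against -0.20. Between the groups, macrophage markers differed by -0.20 in the mean and by 0.05 in the median, with 6 of 11 above 0 and 2 of 11 (18.2%, where 5.35% of all genes were) lower at unadjusted p under 0.05 (Cd163, -1.20, and Cd209b, -1.01), and white adipocyte markers by 0.02 with 0 of 12.

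Slopes of each gene on these marker means, with group in the fit, were a readout chosen after the data were seen. On the macrophage mean 29 of the 36 slopes were below 0 (80.6%, where 52.7% of all genes were), 8 at unadjusted p under 0.05 (9.46% of all genes) and 1 at adjusted p under 0.05 (2.21% of all genes). That gene was Crat, with a slope of -0.63 ± 0.16 (adjusted p = 0.0303 by limma), and Echs1 (-0.45) and Dlst (-0.46) followed. On the white adipocyte mean 29 slopes were above 0 (80.6%, where 52.7% of all genes were), 10 at unadjusted p under 0.05 (8.63% of all genes). Crat alone passed at adjusted p under 0.05 (1.68% of all genes). Within groups the adipocyte mean ran largely opposite to the macrophage mean, so its slopes are not a separate readout. Mdh2 had slopes near 0 on either mean (0.00 ± 0.17 and 0.04 ± 0.33), while Hadhb (0.33 and -0.53), Acadl (0.27 and -0.50), Pdk4 (0.21 and -0.35), Etfdh (0.12 and -0.24), Acaa1a (0.08 and -0.15) and Suclg1 (0.01 and -0.05) had slopes above 0 on the macrophage mean and below 0 on the adipocyte mean.

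These slopes rest on few arrays. The 8 macrophage slopes at unadjusted p numbered 5 with Agt Tg replicate 2 left out (6.1% of all genes), 3 with its replicate 3 left out (6.2% of all genes), 5 with Wt replicate 2 left out (8.35% of all genes) and 13 with its replicate 3 left out (13.1% of all genes). The count at adjusted p lay between 0 and 4 in these refits. It was 4 with Wt replicate 3 left out (5.3% of all genes) and 1 with Agt Tg replicate 1 left out (0.869% of all genes). It was 0 with Agt Tg replicate 2, 3 or 4 or with Wt replicate 1, 2 or 4 left out (0.398% to 1.69% of all genes). The 10 slopes on the adipocyte mean numbered 6 with Agt Tg replicate 2 left out (5.56% of all genes), 4 with its replicate 3 left out (5.48% of all genes), 15 with its replicate 4 left out (8.27% of all genes) and 6 with Wt replicate 2 left out (7.28% of all genes). At adjusted p, 0 to 5 adipocyte slopes passed. The count was 0 when Agt Tg replicate 1, 2 or 3 or Wt replicate 1, 2 or 4 was left out (0.35% to 1.26% of all genes). It was 1 without Agt Tg replicate 4 (1.4% of all genes) and 5 without Wt replicate 3 (4.24% of all genes). Between 25 and 32 of 36 macrophage slopes stayed below 0 in every case.

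**Figure D4:**
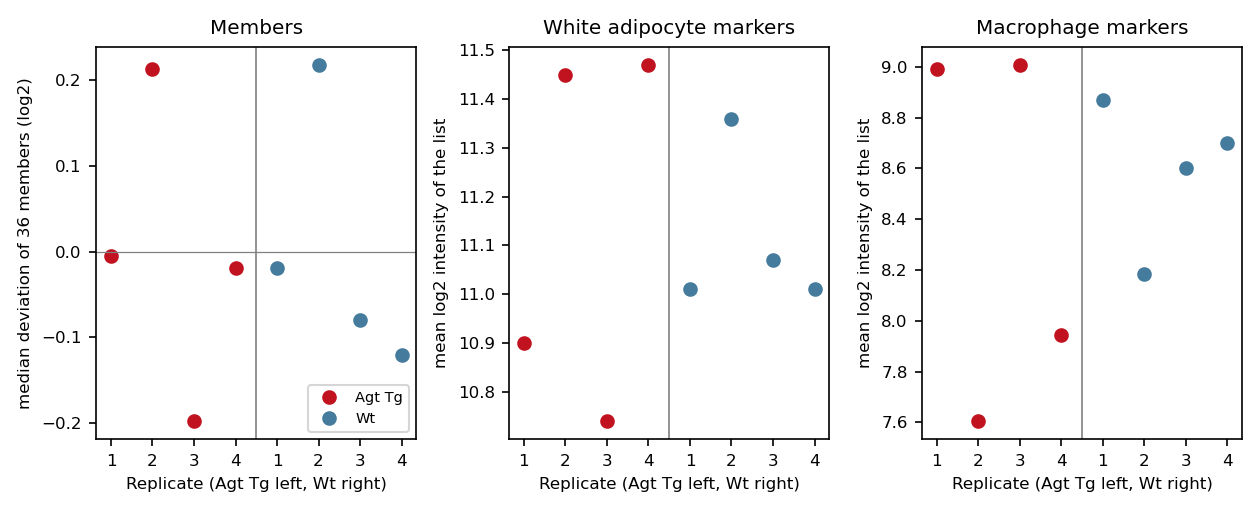
For each array, Agt Tg left and Wt right of the grey line, points give the median deviation of the 36 genes from their own means (log2), and the mean log2 intensity of 12 white adipocyte and of 11 macrophage markers. Agt Tg replicate 2 and Wt replicate 2 are high in the first panel (0.21 and 0.22) and have the lowest macrophage means of their groups (7.60 and 8.19).

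Some lymphocyte markers were lower at unadjusted p, and none passed at adjusted p by limma (lowest 0.348 for B and plasma cell and 0.499 for T and NK cell markers). All 4 measured of 8 B and plasma cell markers had lower means on the arrays labelled Agt Tg, and the list's mean was 4.84 to 7.12 there and 6.20 to 8.69 on the Wt arrays, with Cd79b and Mzb1 lower at unadjusted p under 0.05 (50%, where 5.35% of all genes were called lower). All 4 measured of 8 T and NK cell markers were lower in the mean, with list means of 5.55 to 6.51 and, on the Wt arrays, 6.02 to 7.08, and Cd3d and Cd3e were lower at unadjusted p under 0.05 (50% likewise). The part of these cells and of macrophages in the differences of the oxidation and citrate cycle genes was not tested. A fit with the macrophage mean as a covariate does not test it, since that mean is a rough gauge and leaves out lymphocytes. In that fit Mdh2, Hadhb (-0.44), Idh2 (-0.56) and Eci1 (-0.37) were lower at unadjusted p under 0.05. Bcat2 (0.69) and Acaa2 (0.30) were higher at that mark. The shares of all genes called in that fit are not given here.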

How the data were processed

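Total RNA of epididymal WAT was amplified, labelled with biotin and hybridised to Illumina mouse BeadChips, 1 array per sample. The authors deposited bead intensity values on a linear scale, not normalized, with a detection p-value per probe and array. Log2 values, quantile normalized (median 7.11 on each array), were also deposited by the authors, who used lumi (version not given in the sources used here), and served as an alternative. Groups came from the labels.

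The intensities were normalized by neqc of limma 3.58.1 (R 4.3.3) (normexp background correction with controls inferred from detection p-values, quantile normalization, offset 16). Probes with detection p under 0.05 on at least 4 of 8 arrays were kept (11624 of 25696, or 45.2%). Each was fitted with lmFit and eBayes (trend), with Benjamini-Hochberg adjustment over all kept probes. The offset and background correction make folds of dim probes uncertain. Probes were named through the platform annotation (23978 had 1 symbol, 0 several, 1718 none here). The array tables name no genome build, so probes have no coordinates. Of the rows, 1 blank and 1 that only the log2 table held were not used. Exact two-sided permutation tests ran over all 70 assignments.

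The genes and lists were chosen with earlier results of these data known. Named with values were genes that did not overlap or passed unadjusted p under 0.05, fixed gate and control genes, and further pathway genes of smallest p. The limma step was tested on simulated arrays. Alternatives covered background, scaling, offset, filter, probe choice, variance prior, array weights, block, covariate and left-out arrays.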

Additional observations from a re-analysis of the deposited data

Results flagged for a closer look

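The check for outlying arrays covered the 36 genes and part of the further genes named above. In 6 of 84 groups of 4 arrays checked, 1 array stood apart from the other 3, where chance gives about 1 in 20, or 4.2. Agt Tg replicate 2 was the high array in 5 of them, at 9.994 for Acadvl, 13.89 for Acadm, 9.543 for Decr1, 5.893 for Acot2 and 9.63 for Dbt. Wt replicate 2 was high for Acads, at 9.487.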

How the results depend on the processing

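The number of genes at adjusted p under 0.05 was 0 in all 20 alternatives (lowest adjusted p 0.205). The 2 called higher at unadjusted p became 1 without background correction, with the authors' log2 values, with no filter, when probes of a gene were averaged and with eBayes without trend or robust, and 0 with median scaling or array weights. The 2 called lower became 4 with no filter, where 4.59% of all genes were called lower. That setting compared 42 genes, among them the 6 otherwise set aside as detected on too few arrays. The count was also 4 with array weights or the macrophage covariate, for which shares of all genes are not given here. Without single arrays, the higher count ran from 0 to 3, the lower count from 1 to 4, the adjusted count stayed at 0, and the median difference ran from -0.098 to 0.013. Shares of all genes called in these refits are not given here either, so changes in these counts cannot be set against a background. Median scaling moved the median of all genes from 0.014 to -0.122, that of the 36 genes to -0.187, and the calls over all genes to 0.604% higher and 9.8% lower. Medians of fatty acid oxidation genes were above 0 with array weights (0.06) and when replicate 3 of Agt Tg (0.05) or of Wt (0.11) was left out, and that of entry genes was -0.02 with median scaling. In at least 1 alternative 14 of 36 genes turned sign.

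The labels do not pair samples by replicate number, and correlations of same-numbered arrays were mixed (0.333, 0.388, -0.037 and -0.082). The same-numbered Wt array was the best partner for replicates 1 and 2 of Agt Tg, and not for replicates 3 and 4. The replicate block called 2 genes higher (Bcat2 and Cpt2, without Acaa2), 3 lower (Bckdhb added) and 0 at adjusted p, with a median of -0.063. Over all genes it called 940 at unadjusted p, against 769 without it (0 adjusted). Shares by direction for the block are not given here. Dim probes limit Cpt1b, Acot2 and Mdh1, and 6 genes were not compared with the filter in place.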
